A study of Mus musculus with 12 samples.

Results

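The genes described are 9 genes of the red cell lineage, chosen by name: the adult globin genes Hba-a1, Hba-a2, Hbb-bs and Hbb-bt, the heme synthesis gene Alas2, the membrane transporter Slc4a1, the transcription factor Klf1, the globin chaperone Ahsp and the erythropoietin receptor Epor. All 9 were found among the 40840 named genes listed for each library. Their levels were compared across 12 mouse liver libraries in 4 groups of 3, wild-type mice on either diet (labelled WT-NCD and WT-HFD) and caspase-11 deficient mice on either diet (Casp11-/- NCD, Casp11-/- HFD). WT mice were C57BL/6 per the labels (C57BL/6J per the methods), and Casp11-/- mice were of the strain B6.129S4(D2)-Casp4tm1Yuan/J, which lacks caspase-11 in every cell from the germline on. Males aged 8 to 10 weeks at the start were given a normal chow diet (NCD) or a high-fat diet (HFD) for 12 weeks. The labels call the cells hepatic macrophages. The methods describe a wider preparation, the immune cells of a perfused and digested liver after a filter, an erythrocyte lysis step and a Percoll gradient. The label was checked against marker genes. All 5 pan-leukocyte genes listed were above the lowest value in every library, which does not single out macrophages. In the 11 libraries other than WT-NCD replicate 3, the 12 genes listed for Kupffer cells, the resident liver macrophages, summed to 77.1 to 991 TPM. TPM is a share of the library's RNA that accounts for transcript length. There the 6 B cell genes listed summed to 353 to 4979 TPM. All 8 hepatocyte genes listed were above the lowest value there, and summed to 6360 to 23757 TPM. Genes of several cell types were thus present.

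Red cells carry oxygen on hemoglobin, a tetramer of alpha-globin and beta-globin chains that each hold a heme. During erythropoiesis the factor KLF1 switches on adult globin genes, erythropoietin acts through its receptor to keep the precursors alive, and ALAS2 makes the precursor of heme. The maturing cell then loses its nucleus, and the young red cell, the reticulocyte, keeps globin and ALAS2 transcripts for a while after most others are gone. In the liver, Kupffer cells take up aged red cells and return their iron to the blood.

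Values are TPM as the authors deposited them. No value was below 1.01 TPM, and a gene at that lowest value is described here as not above it. The methods give a nominal number of reads per sample, but the depth reached by each library is unknown, because no read counts were used. One library stood apart from the others before any gene was considered: in WT-NCD replicate 3, 39677 genes were above the lowest value, against 12940 to 18775 in the other 11 libraries. Its correlation with the others on the log2 scale lay between -0.27 and -0.07, and each of the other 11 correlated at 0.948 or more with another library. Results are therefore given with 12 libraries and with the 11 that remain without it. RNA of the small nucleolar U3 genes took 1.24% to 4.84% of the total in the 5 other NCD libraries and 25.8% to 58.5% in the 6 HFD libraries. This leaves less of a fixed total for other genes, so another fit used protein-coding genes alone, rescaled to a fixed total. Rescaling also moved the lowest value, to 2.34 to 4.42 in those NCD libraries and 3.92 to 6.30 in the HFD libraries. Genes near the lowest value are thus mostly raised on HFD in that fit. Casp4, the gene that encodes caspase-11, was at 5.60 to 15.6 TPM in the WT libraries and at 2.56 to 15.2 TPM in the Casp11-/- libraries. These ranges overlapped, and the values cover the whole gene rather than its deleted part, so the genotype of each library rests on its label.

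The alpha-globin genes lie on chromosome 11 and the beta-globin genes on chromosome 7 (mouse build GRCm38.p6, RefSeq). Hba-a1 spans chr11:32283672-32284486 and Hba-a2 spans chr11:32296492-32297310. Hbb-bt spans chr7:103812524-103813923 and Hbb-bs spans chr7:103826523-103827928. Alas2 spans chrX:150547417-150570622. These 5 genes passed the test described below for a lower level on HFD over both genotypes in 11 libraries, as did 17.3% of all genes tested. With all 12 libraries 0 members passed it. For 4 of the 5 genes, the 150 bases before the start are shown. They are given 5′ to 3′ on the strand of the gene, from RefSeq, with matches to GATAA (the core bound by GATA factors), CACCC (bound by KLF1), CCAAT and TATAAA on either strand in capitals.
Hba-a1, chr11:32283522-32283671, plus strand: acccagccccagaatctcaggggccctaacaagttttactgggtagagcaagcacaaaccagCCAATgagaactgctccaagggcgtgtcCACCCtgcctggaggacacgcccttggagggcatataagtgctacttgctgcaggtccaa
Hbb-bs, chr7:103827929-103828078, minus strand: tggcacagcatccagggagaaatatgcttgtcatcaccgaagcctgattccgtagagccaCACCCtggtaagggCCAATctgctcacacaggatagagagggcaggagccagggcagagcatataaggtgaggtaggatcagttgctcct
Hbb-bt, chr7:103813924-103814073, minus strand: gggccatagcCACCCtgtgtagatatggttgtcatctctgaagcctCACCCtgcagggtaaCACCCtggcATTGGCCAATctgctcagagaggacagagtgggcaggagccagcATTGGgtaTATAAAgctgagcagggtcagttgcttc
Alas2, chrX:150547267-150547416, plus strand: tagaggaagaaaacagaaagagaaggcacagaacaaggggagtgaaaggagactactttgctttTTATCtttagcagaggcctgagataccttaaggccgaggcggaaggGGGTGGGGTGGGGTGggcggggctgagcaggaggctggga
The Hba-a2 stretch shares an unbroken run of 147 bases with that of Hba-a1, whereas the longest run shared by the Hbb-bs and Hbb-bt stretches is 14 bases. Promoter sequences were matched for 7 of the 9 genes (not for Slc4a1 and Ahsp). CACCC was found in 7 of 7, against 37.4% of all 32851 promoter stretches of this length. CCAAT was found in 5 of 7, namely the 4 globin genes and Klf1, against 24.5% of all. GATAA was found in 3 of 7, namely Alas2, Klf1 and Epor, against 13.3% of all. TATAAA was found in 1 of 7, Hbb-bt, against 7.57% of all. In Hbb-bt, 2 of the CCAAT matches adjoin each other on opposite strands. A match is a run of letters and was not tested as a binding site.

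The adult globin genes were detected in every library and spanned a wide range. Hba-a1, which encodes an alpha-globin chain, measured 436, 3392 and 23.8 TPM in replicates 1, 2 and 3 of WT-NCD, and 390, 133 and 241 TPM in WT-HFD. In Casp11-/- mice it was at 1789, 1243 and 10092 TPM on NCD and at 293, 195 and 328 TPM on HFD. The 3 Casp11-/- NCD libraries were all above the 3 Casp11-/- HFD libraries, and within WT the ranges overlapped only through WT-NCD replicate 3. Such a separation was common in these libraries: of all 17950 genes tested without that library, 16.4% had every Casp11-/- HFD library below every Casp11-/- NCD library, and 40.3% had every WT-HFD library below both remaining WT-NCD libraries. Casp11-/- NCD replicate 3 was the highest of all, and there Hba-a1 had rank 1 among the protein-coding genes, while its rank in the HFD libraries was 54 to 130.

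Hbb-bs, the more abundant of the adult beta-globin genes, followed nearly the same order of libraries. Its level was 233, 1444 and 20.8 TPM in WT-NCD and 205, 81.9 and 115 TPM in WT-HFD. In Casp11-/- mice it was 828, 666 and 4110 TPM on NCD and 128, 121 and 177 TPM on HFD. As for Hba-a1, the lowest NCD library other than WT-NCD replicate 3 lay just above the highest HFD library (233 against 205 TPM). The separation of WT-NCD replicate 1 from WT-HFD replicate 1 was thus small. Of all 17950 genes tested without WT-NCD replicate 3, 5.60% had every HFD library below every NCD library. After rescaling the diets overlapped for Hbb-bs, with 672 against 819 TPM of protein-coding genes in the same order.

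Hba-a2, the second alpha-globin gene, was at 138, 976 and 23.6 TPM in WT-NCD and 113, 38.1 and 66.6 TPM in WT-HFD. In Casp11-/- mice it was at 494, 403 and 2684 TPM on NCD and at 83.6, 63.9 and 101 TPM on HFD. Hbb-bt, the minor adult beta-globin gene, was at 43.8, 264 and 21.1 TPM in WT-NCD and 41.5, 13.6 and 25.3 TPM in WT-HFD. Both genes repeated the picture of their partners: without WT-NCD replicate 3, every NCD library was above every HFD library, as for 5.60% of all 17950 genes tested. After rescaling of the protein-coding genes the diets overlapped for both. In Casp11-/- mice Hbb-bt was at 136, 112 and 1023 TPM on NCD and at 25.9, 22.1 and 28.6 TPM on HFD.

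**Figure D1:**
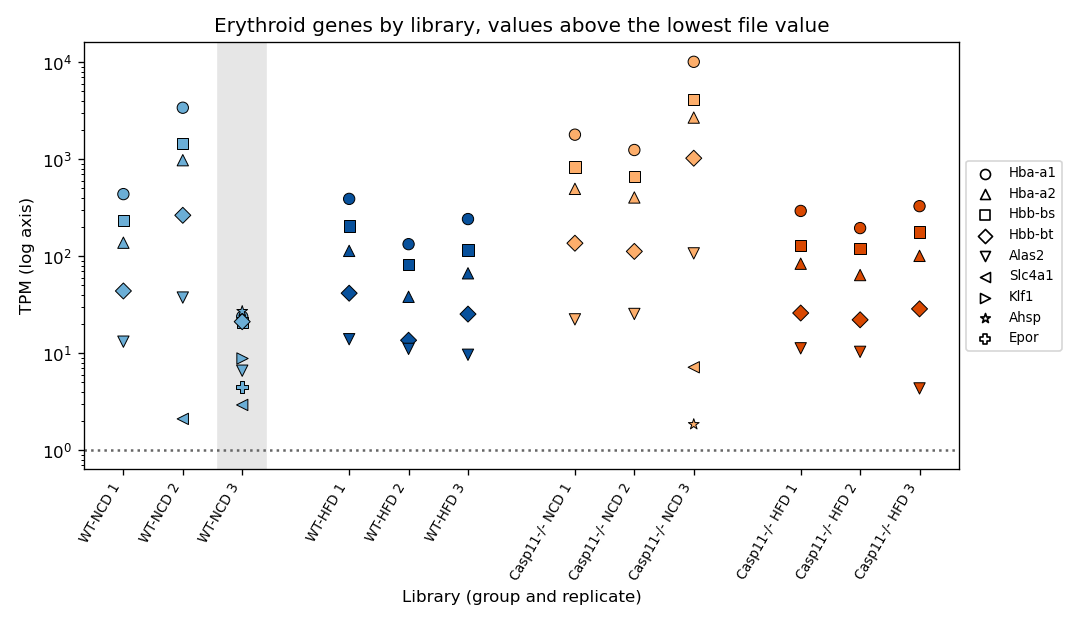
TPM on a log axis for each of the 9 genes in each library, with a marker shape per gene and a colour per group. Values at the lowest file value (dotted line) are not drawn, and the grey band marks WT-NCD replicate 3, where the 4 adult globin genes lie together between 20.8 and 23.8 TPM.

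By group mean, Hba-a1 was highest in Casp11-/- NCD at 4375 ± 4959 TPM (SD, n = 3), followed by WT-NCD at 1284 ± 1837 (SD, n = 3), Casp11-/- HFD at 272 ± 68.9 (SD, n = 3) and WT-HFD at 255 ± 129 (SD, n = 3). The ranges of both NCD groups overlapped, and so did those of both HFD groups, so the order within a diet was not larger than the spread between libraries. The spread itself differed: over the 6 HFD libraries the summed level of the 4 globins ranged from 267 to 749 TPM, and over the 5 NCD libraries other than WT-NCD replicate 3 from 851 to 17909 TPM. In bulk libraries, fewer cells of a type and less RNA per cell cannot be told apart.

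The proportions among the globin genes varied much less than their level. Over the 11 libraries the globin sum varied 67.2-fold between the lowest and the highest, while the ratio of Hba-a1 to Hba-a2 stayed between 3.05 and 3.76. The ratio of Hbb-bs to Hbb-bt lay between 4.02 and 6.19, lowest in Casp11-/- NCD replicate 3. The ratio of summed alpha to summed beta globin lay between 1.79 and 2.56. The ranges of all 3 ratios overlapped between diets, for example 3.09 to 3.76 on NCD and 3.05 to 3.63 on HFD for the alpha pair. In WT-NCD replicate 3 the same ratios were 1.01, 0.986 and 1.13.

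The split within each pair is uncertain, because partner genes share sequence. Of the 625 windows of 75 bases (the read length) in the GENCODE transcript of Hba-a1, 62.2% also occur in that of Hba-a2, and 81.0% of the 480 windows of Hba-a2 occur in Hba-a1. For Hbb-bs the share found in Hbb-bt is 64.3%, and for Hbb-bt the share found in Hbb-bs is 56.6%. No window is shared between an alpha and a beta gene (0%), so exact matches of this length do not mix alpha with beta. The ratio of alpha to beta sums can still depend on how reads were divided within a pair. TPM accounts for length, and partner transcripts differ in it (699 bases for Hba-a1 and 554 for Hba-a2, 628 for Hbb-bs and 703 for Hbb-bt).

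**Figure D2:**
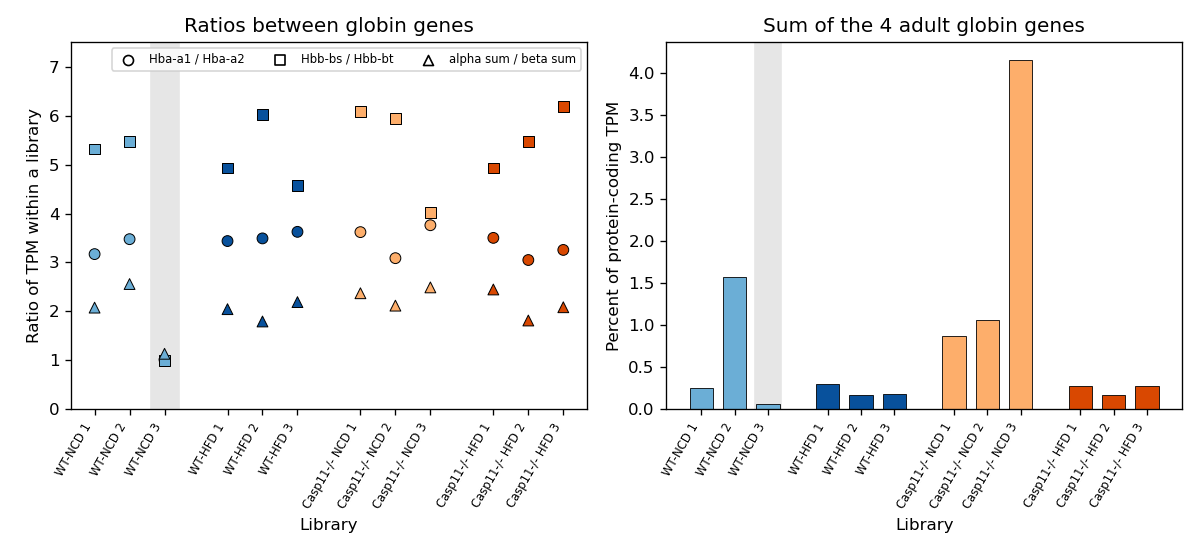
Left, ratios of TPM within each library for the alpha pair (circles), the beta pair (squares) and the alpha to beta sums (triangles), with library groups in colour. Right, the summed TPM of the 4 adult globin genes as a percent of all protein-coding TPM, which was 0.167% to 0.300% in the HFD libraries and 4.16% in Casp11-/- NCD replicate 3. The grey band marks WT-NCD replicate 3.

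In the limma fit of log2(TPM + 1) over the 11 libraries, all 4 globin genes were lower on HFD over both genotypes. The log2 fold change was -2.90 ± 0.56 (SE) for Hba-a1, -2.88 ± 0.52 for Hba-a2, -2.72 ± 0.51 for Hbb-bs and -2.68 ± 0.52 for Hbb-bt, with Benjamini-Hochberg adjusted p between 0.00076 and 0.0016. On the scale of TPM + 1 these are 7.44-fold, 7.36-fold, 6.57-fold and 6.39-fold lower levels on HFD. With Alas2, 5 of the 5 genes tested were called, where 17.3% of the 17950 genes tested were called lower and the median gene changed by -0.39 on the log2 scale. The calls of the 4 globin genes, here and below, are not separate results. Each gene correlated at 0.998 to 0.999 with their mean over the 11 libraries, and partner genes share sequence. The 4 globin genes lay at percentiles 0.75 to 0.91 of all log2 fold changes, counted from the most negative. With all 12 libraries the log2 fold changes were -1.96 ± 1.15, -2.23 ± 0.85, -1.93 ± 0.95 and -2.29 ± 0.71 in the same order, and none of the 6 members tested (Slc4a1 included) was called (3 had an unadjusted p under 0.05), against 0.513% of 19498 genes called lower. In the 11 libraries each globin gene kept its call when any 1 further library was left out (11 of 11 settings), and the fold change of Hba-a1 then ranged from -3.63 to -2.16.

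After rescaling of the protein-coding genes, all 4 globin genes were again called lower over both genotypes in the 11 libraries (adjusted p 0.015 to 0.021), against 6.49% of 12366 genes. The log2 fold changes were then -2.23 for Hba-a1, -2.23 for Hba-a2, -2.06 for Hbb-bs and -2.05 for Hbb-bt. On this scale WT-NCD replicate 1 fell below WT-HFD replicate 1, as for Hba-a1 at 1260 against 1560 TPM of protein-coding genes, so the diets overlapped. Before rescaling, 4 of the 5 members tested had every NCD library above every HFD library, as did 5.60% of all genes tested, and after it none did (0 of 5, and 4.25% of all genes). Within WT, 4 of 5 were separated in this way before rescaling (40.3% of all genes) and 0 of 5 after it (19.8% of all genes). Within Casp11-/-, 5 of 5 were separated both before rescaling (16.4% of all genes) and after it (14.5% of all genes).

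Within Casp11-/- mice the globin genes were lower on HFD, with log2 fold changes of -3.41 ± 0.74 for Hba-a1, -3.30 ± 0.69 for Hba-a2, -3.22 ± 0.67 for Hbb-bs and -3.25 ± 0.69 for Hbb-bt (limma, 11 libraries, adjusted p 0.020 to 0.024). This made 4 of 5 members called, where 0.986% of all genes were called lower. The 11-library fit took its spread from all 4 groups, and leaving out WT-NCD replicate 3 changed that spread and not these fold changes. With 12 libraries no member was called (adjusted p 0.54 for each globin gene, with 4 members at an unadjusted p under 0.05), and no gene of 19498 was called lower (0%), while 1653 had an unadjusted p under 0.05 in either direction. After rescaling, 3 of 5 were called (Hba-a1 at adjusted p 0.051), against 0.898% of all genes. The calls rested on Casp11-/- NCD replicate 3: without it and WT-NCD replicate 3 the Hba-a1 fold change was -2.49 and 0 members were called, and without Casp11-/- HFD replicate 1 in its place 1 member was called.

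Within WT mice the difference was not called, and for 3 of the 4 globin genes its sign depended on which libraries were kept. In the 11 libraries the log2 fold changes were -2.39 ± 0.83 for Hba-a1, -2.46 ± 0.77 for Hba-a2, -2.21 ± 0.75 for Hbb-bs and -2.10 ± 0.77 for Hbb-bt (limma, adjusted p 0.12 to 0.21), with 4 members at an unadjusted p under 0.05 and 2.04% of all genes called lower. With 12 libraries Hba-a1 was at -0.51 ± 1.63 and 0 of 6 members were called (0 at an unadjusted p under 0.05), against 0.103% of genes. When WT-NCD replicate 2 was left out of the 12 and replicate 3 kept, the fold changes turned positive for Hba-a1 (1.16), Hba-a2 (0.20), Hbb-bs (0.81) and Alas2 (0.26). After rescaling 0 of 5 were called, against 0.348% of genes. The WT-NCD group then held 2 libraries that differed 7.14-fold in globin sum, and the result turned on which of them was kept: Hba-a1 was at -3.86 without replicate 1, where 4 members were called, and at -0.91 without replicate 2. In both cases the lone WT-NCD library was assumed to vary like the other groups.

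**Figure D3:**
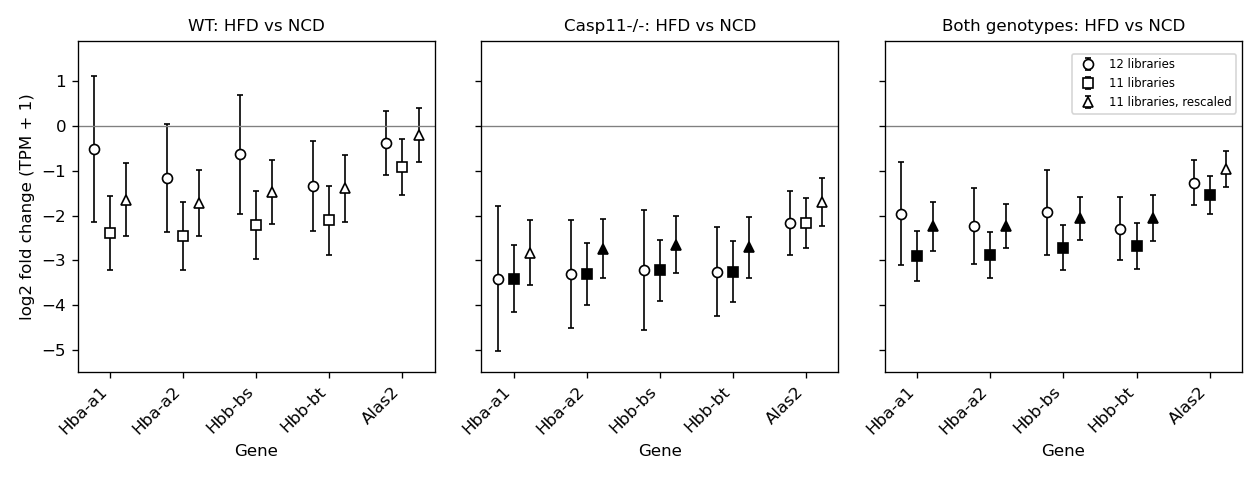
Log2 fold change of TPM + 1 (HFD against NCD) with its standard error for the 5 members detected in every library, within WT, within Casp11-/- and over both genotypes. Circles are the 12-library fit, squares the 11-library fit and triangles the 11-library fit of rescaled protein-coding genes, and filled symbols have an adjusted p under 0.05.

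The diet difference was not shown to differ between genotypes. The interaction of diet and genotype for Hba-a1 was -1.02 ± 1.12 on the log2 scale in 11 libraries and -2.89 ± 2.30 in 12, and no member was called in either (0 of 5 and 0 of 6, limma). Of all genes, 0.00557% and 0% were called. Between genotypes on NCD, Hba-a1 was 1.21 ± 0.83 higher in libraries labelled Casp11-/- on the log2 scale (adjusted p 1), with 0 members called, against 0.0557% of genes in 11 libraries and 0% in 12. On HFD the genotype difference of Hba-a1 was 0.19 ± 0.74, also with 0 members called and 0% of genes called in either fit. No member had an unadjusted p under 0.05 in any of these comparisons.

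ALAS2 is the erythroid form of the enzyme that begins heme synthesis. Alas2 was at 13.1, 37.4 and 6.59 TPM in WT-NCD and 13.9, 11.1 and 9.63 TPM in WT-HFD. In Casp11-/- mice it was at 22.3, 25.4 and 107 TPM on NCD and at 11.2, 10.3 and 4.33 TPM on HFD. The Casp11-/- diets did not overlap, as for 16.4% of all genes tested in 11 libraries, whereas WT-NCD replicate 1 lay within the WT-HFD range. Over both genotypes the log2 fold change was -1.54 ± 0.42 in 11 libraries (limma, adjusted p 0.021) and -1.27 ± 0.50 in 12 (adjusted p 0.25). After rescaling it was -0.95 (adjusted p 0.12), so the call for Alas2 ended there, and it also ended without WT-NCD replicate 2 or WT-HFD replicate 2. Within Casp11-/- it was -2.16 ± 0.56 (adjusted p 0.056) and within WT -0.91 ± 0.63 (adjusted p 0.43) in 11 libraries.

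Alas2 did not keep a fixed proportion to globin. It amounted to 0.597 to 1.54 TPM per 100 TPM of globin in the 5 NCD libraries and to 0.683 to 4.15 in the 6 HFD libraries, and its 2 lowest values were in the 2 libraries with the most globin, Casp11-/- NCD replicate 3 and WT-NCD replicate 2. Its housekeeping counterpart Alas1, which serves heme synthesis outside red cells, was at 12.3 to 49.1 TPM on NCD and 6.03 to 25.2 TPM on HFD, with a log2 fold change of -0.49 ± 0.41 (adjusted p 0.36). The ratio of Alas2 to Alas1 was 6.29 in Casp11-/- NCD replicate 3 and 0.261 to 1.83 in the other 10 of the 11 libraries.

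Of the 13 genes listed for heme synthesis, all 13 had a negative log2 fold change over both genotypes in 11 libraries and 2 were called, Alas2 and Abcb10, a mitochondrial transporter of developing red cells (-0.99 ± 0.32, adjusted p 0.037, called in 3 of 11 settings that left out a further library). Of all genes tested, 68.3% had a negative log2 fold change and 17.3% were called lower, so the count called was no higher than the share of all genes. The list median was -0.72, against -0.39 for all genes, and after rescaling 0 of 13 were called and the median was -0.10, against -0.06 for all genes. Slc25a37 (mitoferrin, which brings iron into mitochondria) was at 98.6 TPM in Casp11-/- NCD replicate 3 and at 13.1 to 31.4 TPM in the other 10 of the 11 libraries. Fech, which inserts the iron into heme, was at 20.0 to 33.8 TPM in the 5 NCD libraries and at 10.96 to 14.9 TPM in the 6 HFD libraries. The diets did not overlap, as for 5.60% of all genes tested, with HFD below NCD. The fold changes of Slc25a37 (-0.87 ± 0.40) and Fech (-0.72 ± 0.32) did not pass (adjusted p 0.11 for each).

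Slc4a1, Klf1, Ahsp and Epor were at the lowest value in nearly every library. Slc4a1, which encodes band 3, the anion exchanger of the red cell membrane, was above it at 2.10 TPM in WT-NCD replicate 2, 2.92 TPM in WT-NCD replicate 3 and 7.15 TPM in Casp11-/- NCD replicate 3, and passed the filter of 3 libraries through those alone. Ahsp, whose product holds free alpha-globin, was at 27.0 TPM in WT-NCD replicate 3 and 1.84 TPM in Casp11-/- NCD replicate 3. Klf1 (9.02 TPM) and Epor (4.45 TPM) were above the lowest value in WT-NCD replicate 3 only. These 3 genes were not tested, and no fold is given for them.

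Detection of the wider red cell genes differed between libraries, as did detection of all genes. Of 9 erythroid markers (Hba-a1, Hbb-bs, Alas2, Slc4a1, Klf1, Ahsp, Rhag, Epb42 and Gata1), 9 were above the lowest value in WT-NCD replicate 3, 6 in Casp11-/- NCD replicate 3 and 3 or 4 in the other 10 libraries. Of all 40840 genes, 39677 were above it in WT-NCD replicate 3, 18775 in Casp11-/- NCD replicate 3 and 12940 to 17322 in the other 10. The libraries with the most markers were thus also those with the most genes above it. The erythroid factor Gata1 was at 1.58 TPM in Casp11-/- NCD replicate 1 and 6.38 TPM in WT-NCD replicate 3 and at the lowest value in the other 10. In WT-NCD replicate 3 the embryonic globins Hba-x (22.1 TPM), Hbb-y (21.5 TPM) and Hbb-bh1 (21.8 TPM), normally silent in adults, were as high as the adult globins, whereas in the other 11 libraries the embryonic and minor globins reached at most 4.84 TPM (Hbb-bh1 in Casp11-/- HFD replicate 1).

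Among 17 genes listed as late erythroid enzymes and factors, 11 were tested in 11 libraries, 11 of 11 had a negative log2 fold change over both genotypes and 5 were called, all lower on HFD, against 68.3% of all genes with a negative fold change and 17.3% called lower. They were Ube2o, a ubiquitin ligase that clears ribosomes in reticulocytes (-1.67 ± 0.37), Bpgm, which makes the 2,3-bisphosphoglycerate that tunes hemoglobin (-1.60 ± 0.39), Car2, a carbonic anhydrase (-1.59 ± 0.46), Mkrn1 (-1.09 ± 0.38) and Isg20 (-0.89 ± 0.31), with adjusted p from limma between 0.0059 and 0.048. Bpgm was at 6.44, 12.3, 11.02, 7.10 and 34.6 TPM in the 5 NCD libraries and at 2.55 to 3.83 TPM in the 6 HFD libraries. Its diets did not overlap, as for 5.60% of all genes tested, with HFD below NCD. After rescaling 2 of 11 were called, Ube2o (-1.31, adjusted p 0.0063) and Bpgm (-1.15, adjusted p 0.026), against 6.49% of all genes called lower. Gpx1, Cat and Bnip3l, the most abundant of this list, were not called, and Cat was at -0.11 ± 0.35. With all 12 libraries none of the list was called (0). When 1 further library was left out of the 11, Ube2o kept its call in 11 of 11 settings, Bpgm in 10 of 11 (lost without WT-NCD replicate 2), and the other 3 in 2 to 5 of 11.

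Of 17 genes of the red cell membrane and skeleton, 9 were at the lowest value in all 11 libraries, 4 were tested and 1 was called lower, against 17.3% of all genes. Epb41 (a membrane skeleton protein also made in leukocytes) was lower on HFD by -1.30 ± 0.36 (limma, adjusted p 0.021) and by -0.74 after rescaling (adjusted p 0.037). Aqp1, a water channel that liver endothelium also makes, had the opposite sign at 1.09 ± 0.41 (adjusted p 0.060), and was called higher on HFD after rescaling (1.76, adjusted p 0.0072). Of 11 erythroid transcription factors, 7 were tested and 3 were called lower, Bcl11a (-1.32 ± 0.37), Ldb1 (-1.15 ± 0.38) and Lmo2 (-1.11 ± 0.39), which lymphoid or other blood cells also express, against the same 17.3% of all genes. After rescaling Bcl11a remained (-0.74, adjusted p 0.048), and Tal1 was called higher on HFD (1.10, adjusted p 0.020), where 6.49% of all genes were called lower and 8.09% higher. The rescaled lowest value was also higher on HFD by median (4.26 against 2.69 on NCD), which limits higher calls of genes near it. Of 10 genes of erythropoietin signalling and iron uptake, 8 were tested and 1 was called lower, Stat5a (-1.15 ± 0.40, adjusted p 0.045, and 0.15 after rescaling), which is a smaller share than that of all genes. When 1 further library was left out of the 11, Epb41 kept its call in 7 of 11 settings, Bcl11a in 5, and Ldb1, Lmo2 and Stat5a in 2 each. The iron carrier gene Trf, a hepatocyte product, was at 0.06 ± 0.52.

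The genes with which macrophages handle red cells and their iron were mixed in direction. Of 14 tested, 3 were called higher on HFD and 0 lower over both genotypes in 11 libraries, against 1.07% of all genes called higher and 17.3% lower. The list median was 0.23 and 5 of 14 had a negative log2 fold change. The genes called were Slc40a1 (ferroportin, which exports iron) at 2.15 ± 0.35, Timd4 (a receptor for dying cells on Kupffer cells) at 1.84 ± 0.40 and Cd163 (the receptor for hemoglobin bound to haptoglobin) at 1.60 ± 0.31 (limma, adjusted p 0.00024 to 0.0046), and each was called in 11 of 11 settings that left out a further library. Slc40a1 was at 13.1 to 25.7 TPM in the 5 NCD libraries and at 58.3 to 168 TPM in the 6 HFD libraries, and it was also called with 12 libraries (2.48 ± 0.42, adjusted p 0.033), as were 0.041% of all genes in that direction. After rescaling 5 of 14 were called higher, against 8.09% of all genes, in a fit whose lowest value was also higher on HFD by median. The additional genes were Hmox1 (1.74, adjusted p 0.019), which breaks down heme, and Stab2 (1.84, adjusted p 0.042). Ftl1 and Fth1, the ferritin chains that store iron, had log2 fold changes of -0.44 ± 0.40 and -0.63 ± 0.39 and were not called.

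Markers of several blood and liver cells moved with diet in the same libraries, and their part in the globin result was not tested. The counts stand against 1.07% of all genes called higher and 17.3% called lower. Of 12 Kupffer cell genes, 10 were called higher on HFD in 11 libraries (list median 2.18). The summed level of the 12 was 77.1 to 400 TPM on NCD and 318 to 991 TPM on HFD. Timd4 is on this list and on that of red cell handling by macrophages, so its call is counted in both. Of 6 B cell genes, 6 were called lower (median -2.26), with sums of 1075 to 4979 TPM on NCD and 353 to 886 TPM on HFD. Of 8 T and NK cell genes 5 were called lower, and of 5 pan-leukocyte genes 4 were called lower. Of 10 neutrophil genes 2 were called lower, of 6 mast cell and basophil genes tested 3 were called lower, and of 8 megakaryocyte and platelet genes tested 1 was called higher. None of 8 hepatocyte and 5 proliferation genes was called (0). The share called among neutrophil genes was thus near that of all genes.

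After rescaling, where 8.09% of all genes were called higher and 6.49% lower, several of these counts differed. Of 12 Kupffer cell genes 11 were called higher, and of 5 B cell genes tested 5 were called lower. Of 7 T and NK cell genes tested 2 were called lower, of 5 pan-leukocyte genes 1, of 10 neutrophil genes 1 and of 6 mast cell and basophil genes 2. Of 8 megakaryocyte and platelet genes 3 were called higher, and of 8 hepatocyte genes 1 was called higher, with a list median of 1.02. In this fit the lowest value itself was higher on HFD by median, which limits higher calls of genes near it. No proliferation gene was called (0 of 5).

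**Figure D4:**
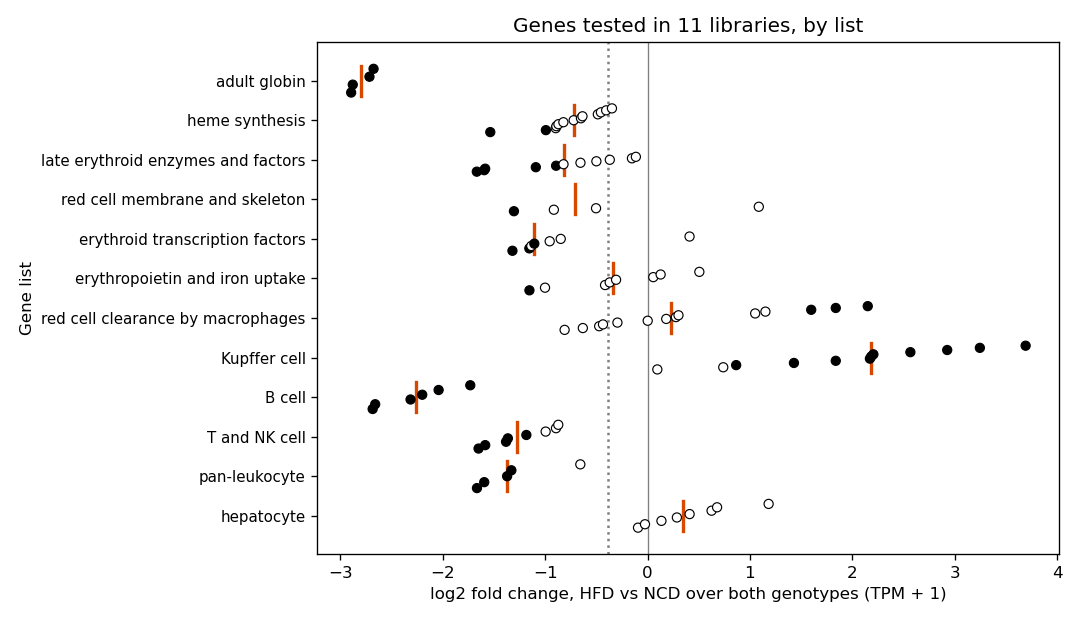
Log2 fold change of TPM + 1, HFD against NCD over both genotypes in 11 libraries, for every tested gene of each list. Filled points have an adjusted p under 0.05, the coloured bar is the median of the list and the dotted line is the median of all genes (-0.39). The 4 adult globin genes lie between -2.90 (Hba-a1) and -2.68 (Hbb-bt), and the Kupffer cell genes lie to the right of 0.

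The genes most like the globins across libraries were taken as the 10 with the highest Pearson correlation with the mean log2(TPM + 1) of the 4 adult globins over the 11 libraries. They were Bpgm (r = 0.96), Ccl27a (0.96), Gm19897 (0.96), B3gnt7 (0.96), Stk19 (0.96), Tmem161a (0.96), Mks1 (0.95), Zfp707 (0.94), Gm16023 (0.94) and Slc25a38 (0.94). Slc25a38, which brings glycine into mitochondria for heme, was the one with the highest correlation over 12 libraries (0.91), and for Bpgm it was 0.78 and for Mks1 0.19. Among genes of the heme list, Fech was at 0.92 and Alas2 at 0.91 over 11 libraries. These points share their library and its composition, and the median correlation of all 17950 genes was 0.61, so a high value describes these libraries and is not a test. Of all these genes, 0.546% were above 0.9. Most of the 10 were low, with a mean of at most 4.46 TPM for each except Bpgm (8.17 TPM).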

How the data were processed

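Total RNA from liver immune cell preparations was sequenced as 75-base single reads after random priming. Per the labels, reads were aligned with STAR to mm10 (GRCm38.p6), and the authors deposited TPM values for each library. The lowest deposited value was 1.01 TPM in every file (0.01 on the log2 scale) and totals were 1000353 to 1022495, so the deposited values are a TPM-like score rather than unaltered TPM. How reads matching several genes were counted is not given in the sources used here. Groups were taken from the labels. The column heading of Casp11-/- HFD replicate 2 lacks a character that the other headings of its genotype have, and its group rests on its labels. No columns of other samples were present.

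Genes above the lowest value in at least 3 libraries were tested with limma 3.58.1 (R 4.3.3, trend) on log2(TPM + 1), with 4 group means and Benjamini-Hochberg adjustment, called at an adjusted p under 0.05. The published analysis used ANOVA. Alternatives were a pseudocount of 0.1, other filters, a replicate block, rescaled protein-coding genes and leaving out libraries. RefSeq gave the biotype of 39356 genes. Ahsp was not among the rescaled genes. Some genes of the lists are not reported here. The 9 genes and all gene lists were chosen with earlier results of these data known. Genes were named if called in 12 or 11 libraries or among the 3 most abundant of a list, and by correlation with globin. The labels number the replicates of a group and do not say more of their origin, so p-values measure the spread between these libraries, which may be technical.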

Additional observations from a re-analysis of the deposited data

How the results depend on the processing

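With 12 libraries, 0 members were called in any comparison, and this count was also 0 under a pseudocount of 0.1, other filters, rescaling of protein-coding genes alone and a replicate block (0 for each comparison), and with the spread from 2 groups (0 for the 4 comparisons of 2 groups, the only ones it can be run for). WT-NCD replicate 3 decided the diet results. Leaving it out gave 4 members called within Casp11-/- and 5 over both genotypes, and with rescaling 3 and 4. Leaving out a further library gave 0 to 4 within WT, 0 to 5 within Casp11-/- and 4 to 5 over both genotypes. Without WT-NCD replicate 2 and with replicate 3 kept, 4 log2 fold changes within WT turned positive, Hba-a1 (1.16), Hba-a2 (0.20), Hbb-bs (0.81) and Alas2 (0.26), and over all settings that left out libraries they were as low as -3.86, -3.86, -3.52 and -1.63, each without WT-NCD replicates 1 and 3. The cause was not tested.

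Further alternatives were chosen after seeing the data. A replicate block without WT-NCD replicate 3 gave 1 member called within WT, 5 within Casp11-/- and 5 over both genotypes. Rescaling without WT-NCD replicate 3 and Casp11-/- NCD replicate 3 gave 0, 0 and 4. Deviations of same-numbered libraries from their group means correlated at -0.33 to 0.47 (median 0.18, 8 of 15 pairs above 0.1). Libraries of different number correlated at -0.57 to 0.47 (median -0.06, 10 of 30 pairs above 0.1). The ranges overlap, so these values do not settle whether the numbers pair the samples. The labels do not say so, and the main fit used no pairing. The depth reached by each library is unknown, which limits what can be said of genes at the lowest value.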
